A study of Mus musculus with 8 samples.

Results

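RNA of heavy polysomes was compared with total RNA in C2C12 cells that overexpressed AUF1. The comparison takes the 4 AUF1 libraries of the series' 8, 2 from heavy polysomes and 2 from total RNA, chosen by their labels, over all 13167 genes that passed a filter on low counts. C2C12 cells are mouse myoblasts that stop dividing and fuse into multinucleate myotubes in low serum. All groups were grown in 10% fetal bovine serum and then held for 48 h in 2% horse serum. The AUF1 groups are labelled as overexpressing AUF1 and the comparison groups as WT. The promoter of the transgene, whether the line is 1 clone, and how gradient fractions were pooled were not given in the sources used here. The libraries titled High were read as the heavy polysome fraction. No label ties the 2 replicates of a group to separate cultures, and the p-values then reflect only how far these libraries varied, which may be technical.

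AUF1 (encoded by Hnrnpd) binds AU-rich elements in mRNAs and affects their decay and translation. On a polysome, several ribosomes translate 1 mRNA at a time, so mRNAs in the heavy fraction are those carrying many ribosomes, while untranslated or lightly loaded RNAs are more abundant in total RNA. The amount of an RNA on polysomes relative to total RNA is the measure described here, as log2 of polysome over total CPM (counts of a gene per unit of library size, after TMM scaling). A value below 0 means that the RNA took a smaller share of the polysome library than of the total library, and amounts per cell are not measured.

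The 4 libraries held 26935603 to 34917660 counts in genes. The total RNA library of replicate 1 stood apart. Its scaling factor was 0.818, against 0.960 to 1.13 in the other 7 libraries, and its polysome to total ratio followed the GC content of the transcript. Library levels or replicate values are therefore given for many genes and lists, and replicate 2 does not use that library. A fitted ratio given alone combines both replicates and so includes that library. All 20 myoblast and myotube markers were measured, and their summed level was 32220 and 38520 CPM on polysomes and 43156 and 35066 CPM in total RNA. Summed immune markers were at 5.71 to 11.4 CPM and endothelial markers at 4.23 to 7.59 CPM, with Ptprc, Emr1, Tyrobp, Kdr and Tie1 at 0 in all 4 libraries. Summed fibroblast markers were at 164 and 34.8 CPM on polysomes and 205 and 37.6 CPM in total RNA, which follows the replicate number. In bulk RNA, fewer cells of a type and less RNA per cell cannot be told apart. Smooth muscle markers, which differentiating C2C12 cells also express, summed to 11798 to 18857 CPM. Hnrnpd, the overexpressed gene, was at 549 and 427 CPM on polysomes and 448 and 397 CPM in total RNA, against 106 and 131 CPM and 64.2 and 99.6 CPM in the WT libraries. Its polysome to total log2 ratio was 0.21 ± 0.27 (SE, adjusted p = 0.792, edgeR). Reads of the transgene and of the cell's own gene cannot be told apart in these counts.

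The edgeR test called 2 RNAs as different between heavy polysomes and total RNA, and both were depleted from polysomes. They were H19, a long noncoding RNA of embryonic and regenerating muscle, and Sepw1 (current symbol Selenow), a small selenoprotein of muscle. By edgeR's quasi-likelihood test with the replicate number as a block, 2 of 13167 genes were lower at an adjusted p under 0.05 (0.0152%) and 0 were higher (0.0%). At an unadjusted p under 0.05, edgeR gave 937 lower (7.12%) and 667 higher genes (5.07%). DESeq2 with the same block called 180 lower (2.1% of 8572 genes with an adjusted p) and 7 higher (0.0817%). It gave no adjusted p for the other 4595 genes, which could not be called. The DESeq2 counts given for gene lists below are to be read beside these shares. They are set over all measured members, so a member without a DESeq2 adjusted p counts as not called. The edgeR count depends on single libraries: it was 0 without AUF1 polysome replicate 1, without AUF1 polysome replicate 2, without WT total replicate 1 or without WT total replicate 2. It was 10 without AUF1 total replicate 1, 65 without WT polysome replicate 1, 68 without WT polysome replicate 2 and 1133 without AUF1 total replicate 2. Without the block it was 0. The fit with the block left 3 residual degrees of freedom, so a gene that was not called may still differ.

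H19 lies on chromosome 7 of mm10 at 142575529 to 142578143 on the minus strand and is annotated as a lincRNA. It was at 2741 and 2994 CPM on polysomes and at 19435 and 16555 CPM in total RNA. The polysome libraries lay far below the total libraries and the groups did not overlap. The fitted log2 ratio was -2.65 ± 0.25 (SE), a 6.29-fold depletion, with an adjusted p of 0.0181 in edgeR. The replicates gave -2.83 and -2.47. In WT the ratio was -2.35 ± 0.24, and the difference between genotypes was -0.30 ± 0.33 (edgeR adjusted p = 1). H19 is also the host of a microRNA, whose mature strands are shown from RefSeq (GRCm38.p6) with the seed, bases 2 to 8, in capitals. These libraries count the host transcript and do not measure the microRNA. The strands lie at chr7:142577112-142577133 and chr7:142577078-142577099, minus strand.
mmu-miR-675-5p: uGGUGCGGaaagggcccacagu
mmu-miR-675-3p: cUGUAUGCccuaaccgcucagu

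Sepw1 lies on chromosome 7 at 15917208 to 15922402, minus strand, and is protein coding. It was at 33.5 and 44.2 CPM on polysomes and at 192 and 175 CPM in total RNA, again without overlap. The log2 ratio was -2.24 ± 0.23 (SE), a 4.73-fold depletion, with an edgeR adjusted p of 0.0240. The WT ratio was -2.28 ± 0.23, so the genotypes differed by 0.03 ± 0.32 (edgeR adjusted p = 1). Selenoproteins are made by reading an in-frame UGA codon, normally a stop, as selenocysteine. In the annotated Sepw1 coding sequence that codon is number 13 of 88. It is shown here as DNA on the coding strand with TGA in capitals, beside those of the glutathione peroxidases Gpx1 (codon 47 of 201) and Gpx4 (codon 73 of 197). The Sepw1 stretch spans 2 exons, chr7:15922252-15922256 and chr7:15920449-15920473 (minus strand), Gpx1 lies at chr9:108339439-108339468 and Gpx4 at chr10:80054725-80054754 (both plus strand, mm10).
Sepw1: tattgtggagctTGAggctataagcccaag
Gpx1: gtcgcgtctctcTGAggcaccacgatccgg
Gpx4: gtggcctcgcaaTGAggcaaaactgacgta

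Of the 19 selenoprotein genes measured, Sepw1 was called lower and 0 were called higher. The median log2 ratio of the list was -0.26, against -0.02 over all genes tested. Gpx1, which reduces hydrogen peroxide, had -0.98 ± 0.26 (edgeR adjusted p = 0.289), Gpx4, which reduces lipid peroxides, -0.93 ± 0.30 (0.357, edgeR adjusted p), and Sepn1, a selenoprotein of the muscle reticulum, -0.72 ± 0.22 (0.357, edgeR adjusted p). None of these 3 passed the edgeR test. Of the 19, 4 were lower and 0 higher at an unadjusted edgeR p under 0.05 (7.12% and 5.07% of all genes). DESeq2 called 2 lower, Sepw1 and Gpx1 (DESeq2 adjusted p = 0.0426 for Gpx1), and 0 higher. The list's medians differed between replicates, at -0.60 and 0.07. Of the 19, 12 had a log2 ratio below 0 and 7 above, among them Dio2 (0.96 ± 0.47) and Ept1 (0.53 ± 0.24). In replicates 1 and 2, Dio2 had 1.93 and 0.32 and Ept1 0.73 and 0.30. For 6 of the 19, both polysome libraries were below both total libraries (13.4% of all genes). For 4, both were above (8.86% of all genes).

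**Figure D1:**
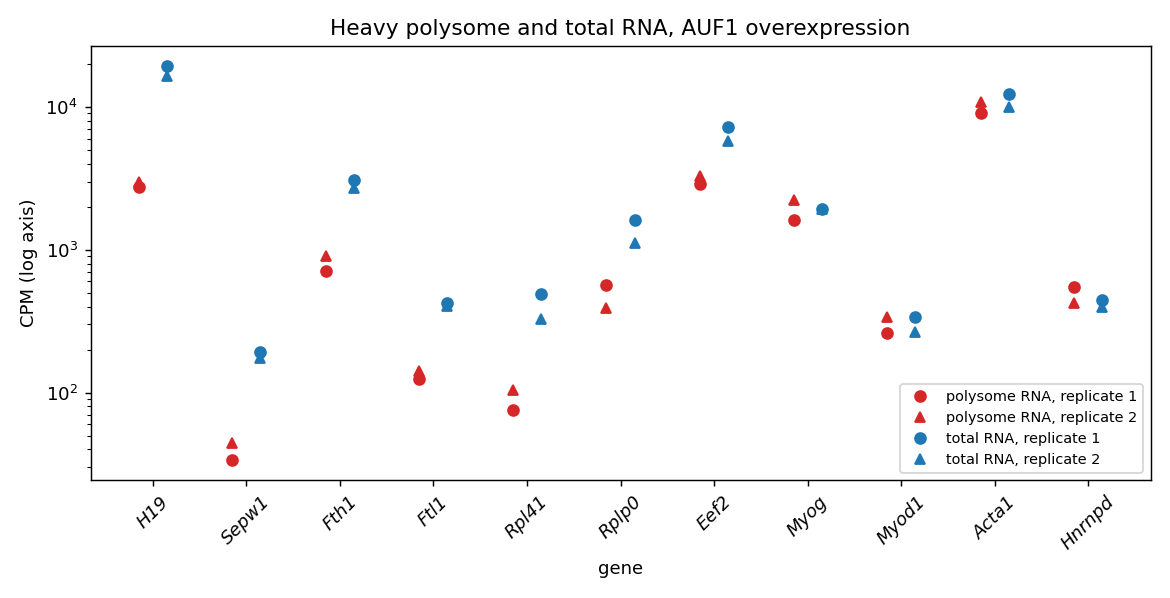
Levels of 11 genes in the 4 AUF1 libraries, in CPM on a log axis, with polysome libraries in red, total libraries in blue, circles for replicate 1 and triangles for replicate 2. H19, Sepw1, Fth1, Ftl1 and Rpl41 have both polysome libraries below both total libraries, while Myog, Myod1 and Acta1 have overlapping groups.

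The ferritin mRNAs were depleted too, less than H19 and Sepw1, and did not pass the test. Ferritin stores iron, and the heavy and light chain mRNAs carry an iron-responsive element near the 5′ end, a hairpin that iron regulatory proteins bind to block translation. Fth1 (heavy chain) was at 708 and 905 CPM on polysomes and 3064 and 2706 CPM in total RNA. Its log2 ratio was -1.84 ± 0.24 (SE, edgeR adjusted p = 0.0572). Ftl1 (light chain) was at 124 and 141 CPM on polysomes and 426 and 405 CPM in total RNA, with a log2 ratio of -1.64 ± 0.22 (edgeR adjusted p = 0.0598). In both genes the polysome libraries were below the total libraries in both replicates. Slc40a1 (ferroportin, the iron exporter) also carries such an element and was at 10.1 and 11.6 CPM on polysomes and 8.76 and 21.7 CPM in total RNA, where the groups overlapped. The loop region of the elements is shown as DNA on the transcript strand, with the bulged C and the CAGTG of the loop in capitals, from chr19:9982730-9982759 (plus strand), chr7:45459780-45459809 and chr1:45925466-45925495 (minus strand, mm10).
Fth1: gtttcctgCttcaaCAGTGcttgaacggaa
Ftl1: gtgtcttgCttcaaCAGTGtttgaacggaa
Slc40a1: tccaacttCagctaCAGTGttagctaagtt

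The letters searched were CNNNNNCAGTGN on the transcript strand. They also occur in the first 200 bases of at least 1 coding transcript of 1460 of 12605 genes (11.6%), so the letters alone do not define an element. Of the 7 iron-related genes measured, 0 passed the edgeR test in either direction and the median was -0.46. At an unadjusted edgeR p under 0.05, 3 were lower and 1 higher (7.12% and 5.07% of all genes). DESeq2 called 2 lower, Fth1 and Ftl1, and 0 higher. Cdc14a, a phosphatase, had a log2 ratio of 0.92 ± 0.37, with 1.60 in replicate 1 and 0.29 in replicate 2. Tfrc (transferrin receptor) had -0.15 ± 0.26 and Slc11a2 (an iron transporter) -0.46 ± 0.26.

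Ribosomal protein mRNAs were lower on polysomes as a group, though 0 of the 74 measured passed the edgeR test in either direction. Their median log2 ratio was -0.60, with -0.80 in replicate 1 and -0.34 in replicate 2, against -0.02 over all genes. For 50 of the 74, both polysome libraries were below both total libraries, and for 2 both were above. Over all genes these shares were 13.4% and 8.86%. Of the 74, 32 were lower and 0 higher at an unadjusted edgeR p under 0.05 (7.12% and 5.07% of all genes). DESeq2 called 10 lower and 0 higher. In WT the median was -0.69. Ribosomal proteins have many processed pseudogenes, and counts of some members were so low (Rps28, Rpl24 and Rpl28 were under 2 CPM in most libraries) that their values are uncertain.

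Rpl41, the smallest ribosomal protein, was at 76.0 and 103 CPM on polysomes and 490 and 330 CPM in total RNA. Its log2 ratio was -2.17 ± 0.28 (SE, edgeR adjusted p = 0.0568). Rplp0, of the ribosomal stalk, was at 567 and 390 CPM on polysomes and 1622 and 1122 CPM in total RNA, a log2 ratio of -1.52 ± 0.23 (edgeR adjusted p = 0.120). Neither gene had overlapping groups. Rplp1, another stalk protein, had -1.24 ± 0.21 and Rpsa, of the small subunit, -1.43 ± 0.26. Rpl15 and Rpl5, of the large subunit, had 0.45 ± 0.29 and 0.39 ± 0.31 and overlapping groups. Rps28 was at 0.249 and 0.0369 CPM on polysomes and 0.490 and 39.5 CPM in total RNA, so 1 library set its fitted ratio.

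mRNAs of ribosomal proteins begin with a pyrimidine tract (TOP motif), through which growth signals control their translation. C followed by 4 pyrimidines (C or T) on the sense strand lay within 5 bases of the RefSeq start in 28 of 55 ribosomal protein genes with a start (50.9%) and in 23.9% of 10293 tested genes. Exactly at the start the shares were 25.5% and 3.09%. Of the 148 genes with a start that DESeq2 called lower, 25.7% had the tract within 5 bases. The starts of 2 ribosomal protein genes with the tract exactly at the start are shown as examples. These genes were picked for their small edgeR p among such genes, so their ratios do not stand for the rest. The stretches run from 10 bases before to 20 after, with the tract in capitals (GRCm38.p6, chr17:27635225-27635254, minus strand, and chr2:180257369-180257398, plus strand).
Rps10: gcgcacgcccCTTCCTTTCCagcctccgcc
Rps21: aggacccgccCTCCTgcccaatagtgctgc

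Rps10 was at 116 and 116 CPM on polysomes and 219 and 167 CPM in total RNA. Rps21 was at 54.9 and 88.7 CPM on polysomes and 143 and 121 CPM in total RNA. Neither passed the test, with log2 ratios of -0.73 ± 0.22 and -0.89 ± 0.27.

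**Figure D2:**
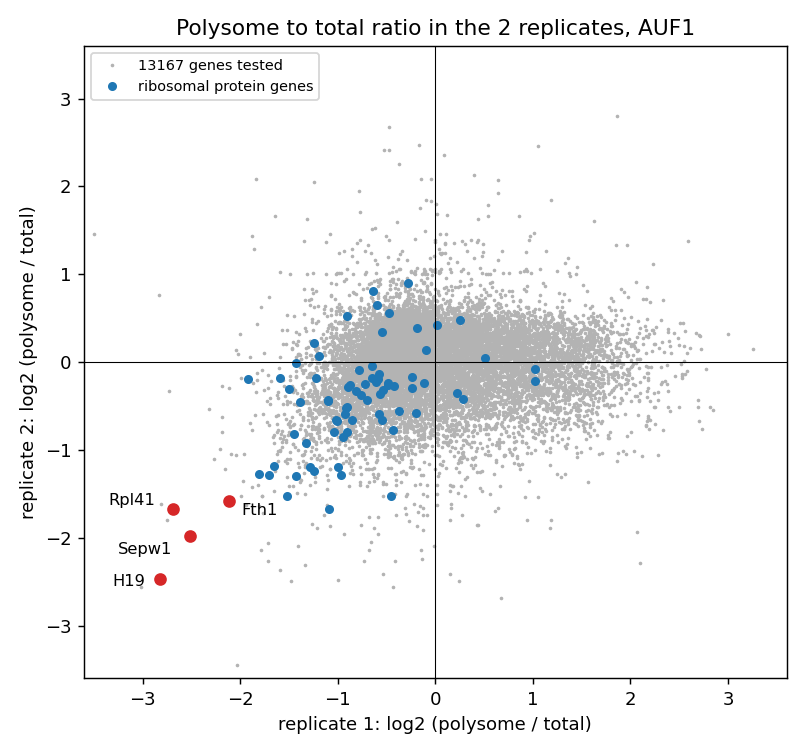
Log2 polysome over total CPM of each tested gene in replicate 1 (horizontal) and replicate 2 (vertical), AUF1 libraries, with ribosomal protein genes in blue and H19, Sepw1, Fth1 and Rpl41 in red. The red points lie at the low end in both replicates, the spread is wider in replicate 1, and 3 genes lie outside the axes.

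Among the other genes of the translation machinery, 0 of 68 translation factors and 0 of 20 cytosolic tRNA synthetases passed the edgeR test in either direction. At an unadjusted edgeR p under 0.05, 14 factors were lower and 6 higher and 13 synthetases lower and 0 higher. Over all genes, 7.12% were lower and 5.07% higher at that p. DESeq2 called 5 factors and 3 synthetases lower and 0 of either higher. The median log2 ratio of the factors was -0.06. Eef2, the elongation factor that moves the ribosome along, was at 2901 and 3260 CPM on polysomes and 7264 and 5802 CPM in total RNA, with -1.08 ± 0.23 (SE, edgeR adjusted p = 0.247). Eif4g1, the scaffold of the cap-binding complex, had -0.91 ± 0.21, and Eif3f and Eif3c, subunits of the eIF3 complex, had -0.94 ± 0.23 and -0.98 ± 0.24. Eef1a1, which delivers aminoacyl-tRNA, was at 1863 and 2047 CPM on polysomes and 2909 and 3568 CPM in total RNA.

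The synthetases had a median of -0.59, and 19 of 20 were below 0. For 13 of them, both polysome libraries were below both total libraries (13.4% of all genes). Aars (alanine) was at 163 and 174 CPM on polysomes and 432 and 349 CPM in total RNA, a log2 ratio of -1.21 ± 0.22 (edgeR adjusted p = 0.183). Qars, Cars and Iars, which charge tRNAs with glutamine, cysteine and isoleucine, had -0.96 ± 0.23, -0.84 ± 0.22 and -0.79 ± 0.22. The median of the list was -0.75 in replicate 1 and -0.40 in replicate 2.

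The list of 33 long noncoding and regulatory RNAs had the lowest median of the lists with 5 or more genes measured, at -0.85, with -0.60 and -1.01 in the replicates. By edgeR, H19 was called lower and 0 were called higher. Without adjustment, 16 were lower and 3 higher at an edgeR p under 0.05 (7.12% and 5.07% of all genes). DESeq2 called 8 lower and 0 higher. For 18 of the 33, both polysome libraries were below both total libraries (13.4% of all genes), and for 2 both were above (8.86% of all genes). Snhg6, a host of small nucleolar RNAs, was at 5.69 and 3.10 CPM on polysomes and 17.3 and 16.3 CPM in total RNA (-1.96 ± 0.31, edgeR adjusted p = 0.122). The other small nucleolar RNA hosts 1500012F01Rik (Zfas1) and Gm11974 (Snhg15) had -1.46 ± 0.23 and -1.39 ± 0.23. Not all noncoding RNAs were low. Snhg5 was at 72.0 and 52.4 CPM on polysomes and 42.3 and 41.9 CPM in total RNA, and Tug1 had 0.93 ± 0.34. The nuclear RNAs Malat1 and Neat1 had -0.30 ± 0.49 and -0.96 ± 0.28, and Malat1 was 0.53 in replicate 1 and -1.02 in replicate 2. Snhg5, Tug1, Rpl15, Rpl5 and Rps28 were chosen after their values were seen.

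**Figure D3:**
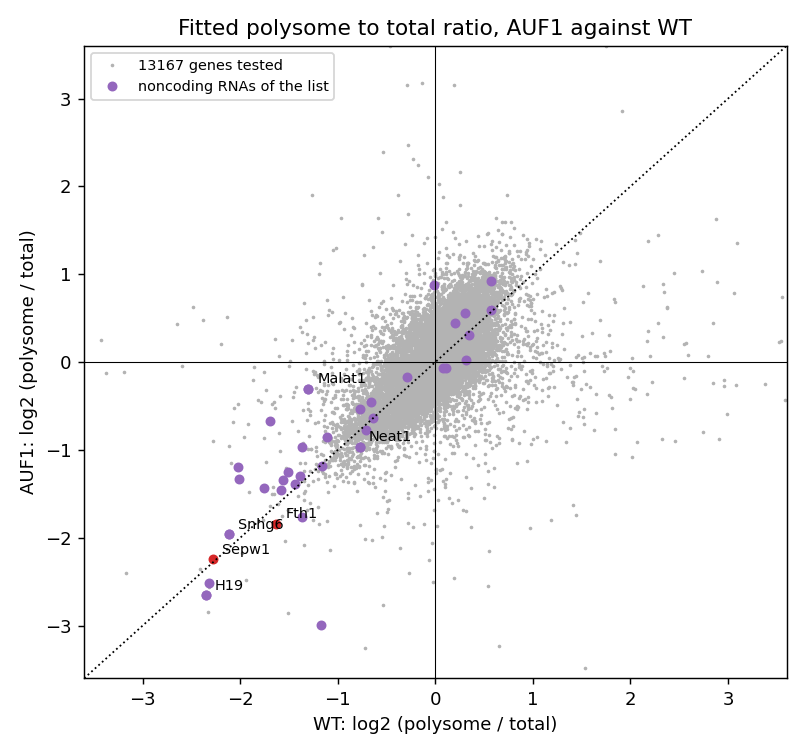
Fitted log2 polysome over total CPM in WT (horizontal) and AUF1 (vertical), with the 33 noncoding RNAs of the list in purple, Sepw1 and Fth1 in red, and a dotted line of equal values. H19, Sepw1, Fth1 and Snhg6 lie low on both axes, and 28 genes lie outside the axes.

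Among muscle genes, 0 of 24 myogenic regulators, 0 of 21 small and 0 of 27 large sarcomere genes passed the edgeR test in either direction. At an unadjusted edgeR p under 0.05, 3 regulators were higher and 0 lower, and 1 small sarcomere gene was higher and 0 lower. Of the large sarcomere genes, 11 were lower and 0 higher. Over all genes, 5.07% were higher and 7.12% lower at that p. DESeq2 called 2 large sarcomere genes lower, Unc45b and Myom2, and 0 of the other lists. Myog, which drives terminal differentiation, was at 1607 and 2246 CPM on polysomes and 1935 and 1916 CPM in total RNA (-0.02 ± 0.23). Myod1, the myoblast determination factor, was at 261 and 337 CPM on polysomes and 338 and 266 CPM in total RNA (-0.06 ± 0.29). In both genes the groups overlapped. Mef2c, a partner of these factors, had 0.96 ± 0.39, Myf5, another determination factor, 0.92 ± 0.31, and Tead1 and Eya1, transcription factors of muscle genes, 0.87 ± 0.33 and 0.69 ± 0.34. These 4 were higher mainly in replicate 1, at 1.36 to 1.56, against 0.04 to 0.38 in replicate 2.

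The large sarcomere genes had a median of -0.59, with 14 of 27 non-overlapping and lower (13.4% of all genes) and 0 higher (8.86% of all genes). The AUF1 replicates gave medians of -0.48 and -0.73. In WT the median was -0.13, with replicates of opposite sign at 0.35 and -0.48. The difference between genotypes was called for 0 of these genes. Unc45b, a chaperone that folds myosin, was at 67.9 and 71.7 CPM on polysomes and 180 and 159 CPM in total RNA (-1.28 ± 0.26, edgeR adjusted p = 0.200). Myom2, of the M-band, had -1.02 ± 0.24, Obsl1, a cytoskeletal adaptor, -0.82 ± 0.23 and Myh3, the embryonic myosin heavy chain, -0.95 ± 0.28. Titin (Ttn) was at 467 and 591 CPM on polysomes and 163 and 650 CPM in total RNA, and nebulin (Neb) at 204 and 302 against 67.0 and 489 CPM. In both, the total library of replicate 1 was the lowest of the 4. Acta1, skeletal actin, was at 9018 and 10907 CPM on polysomes and 12324 and 9984 CPM in total RNA. The small sarcomere genes had a median of -0.00.

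The fusion proteins Tmem8c (Mymk) and Gm7325 (Mymx) had log2 ratios of -0.09 ± 0.28 and 0.02 ± 0.31. Tmem8c was at 1905 and 220 CPM on polysomes and 2418 and 186 CPM in total RNA, so it differed more between replicates than between fractions. Of the 15 fusion genes measured, 0 passed the edgeR test. At an unadjusted edgeR p under 0.05, 3 were lower and 0 higher (7.12% and 5.07% of all genes). DESeq2 called 1 lower (Ehd2, a membrane trafficking protein). Cdkn1a, a cyclin-dependent kinase inhibitor of the cell cycle exit, had 0.14 ± 0.26 and Ccnd1 (cyclin D1) -0.00 ± 0.28. In the cell cycle list of 37 genes, 0 passed the edgeR test and the median was -0.00. Of the 37, 7 were lower and 1 higher at an unadjusted edgeR p under 0.05 (7.12% and 5.07% of all genes). DESeq2 called 2 of the list lower, Mcm3 and Mcm2. The lowest p in it belonged to replication helicase subunits, Mcm3 (-1.35 ± 0.31), Mcm2 (-1.12 ± 0.29), Mcm6 (-0.80 ± 0.27) and Mcm7 (-0.75 ± 0.26). Atf4, a stress factor with upstream open reading frames, had -0.21 ± 0.23 and Odc1, the first enzyme of polyamine synthesis, -0.14 ± 0.27.

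AU-rich mRNAs, the class that AUF1 binds, had a median of 0.16 over 40 genes, of which 0 passed the edgeR test in either direction. Of the 40, 7 were higher and 1 lower at an unadjusted edgeR p under 0.05 (5.07% and 7.12% of all genes). DESeq2 called 0 of those to which it gave an adjusted p. The WT median was 0.18. Ptgs2 (cyclooxygenase 2) was at 211 and 45.7 CPM on polysomes and 60.3 and 36.4 CPM in total RNA, and Gadd45a, a growth arrest gene, at 489 and 913 against 214 and 624 CPM. Their log2 ratios were 1.10 ± 0.37 and 0.83 ± 0.29. In replicates 1 and 2, Ptgs2 had 1.80 and 0.33 and Gadd45a 1.19 and 0.55. Klf6 had 0.74 ± 0.28. Cxcl1 went the other way, with -1.27 ± 0.45. It was at 0.53 and 1.29 CPM on polysomes and 1.61 and 2.70 CPM in total RNA. For 6 of the 40, both polysome libraries were above both total libraries (8.86% of all genes), and for 2 below (13.4% of all genes).

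Glycolytic genes were below 0 in all 17 measured, with a median of -0.61, and 0 passed the edgeR test. Without adjustment, 8 were lower and 0 higher at an edgeR p under 0.05 (7.12% and 5.07% of all genes). DESeq2 called 3 lower, Pfkp, Pfkm and Pkm. For 9, both polysome libraries were below both total libraries (13.4% of all genes). Phosphofructokinases Pfkp and Pfkm had -1.09 ± 0.26 and -0.99 ± 0.24, pyruvate kinase Pkm -0.97 ± 0.27 and hexokinase Hk1 -0.84 ± 0.25. The median was -0.85 in replicate 1 and -0.24 in replicate 2. Gapdh was at 1.18 and 2.32 CPM on polysomes and 4.94 and 1.85 CPM in total RNA, far below the other glycolytic genes such as Pkm, at 829 to 2210 CPM. It has many near-identical pseudogenes, and its value is uncertain.

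Lysosomal genes had a median of -0.48, with 25 of 27 below 0 and 0 called by edgeR. At an unadjusted edgeR p under 0.05, 7 were lower and 0 higher (7.12% and 5.07% of all genes). DESeq2 called Ctsd lower and 0 higher. The polysome and total libraries overlapped in every lysosomal gene. Ctsd (cathepsin D) was at 1191 and 89.5 CPM on polysomes and 2408 and 144 CPM in total RNA. Within each replicate the polysome library was lower, by -1.02 and -0.69. Psap, which activates sphingolipid hydrolases, had -1.07 ± 0.34, Hexa, a hexosaminidase, -0.65 ± 0.23 and Grn (progranulin) -0.73 ± 0.26. In replicates 1 and 2, Psap had -1.70 and -0.41, Hexa -0.73 and -0.57 and Grn -1.11 and -0.36.

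**Figure D4:**
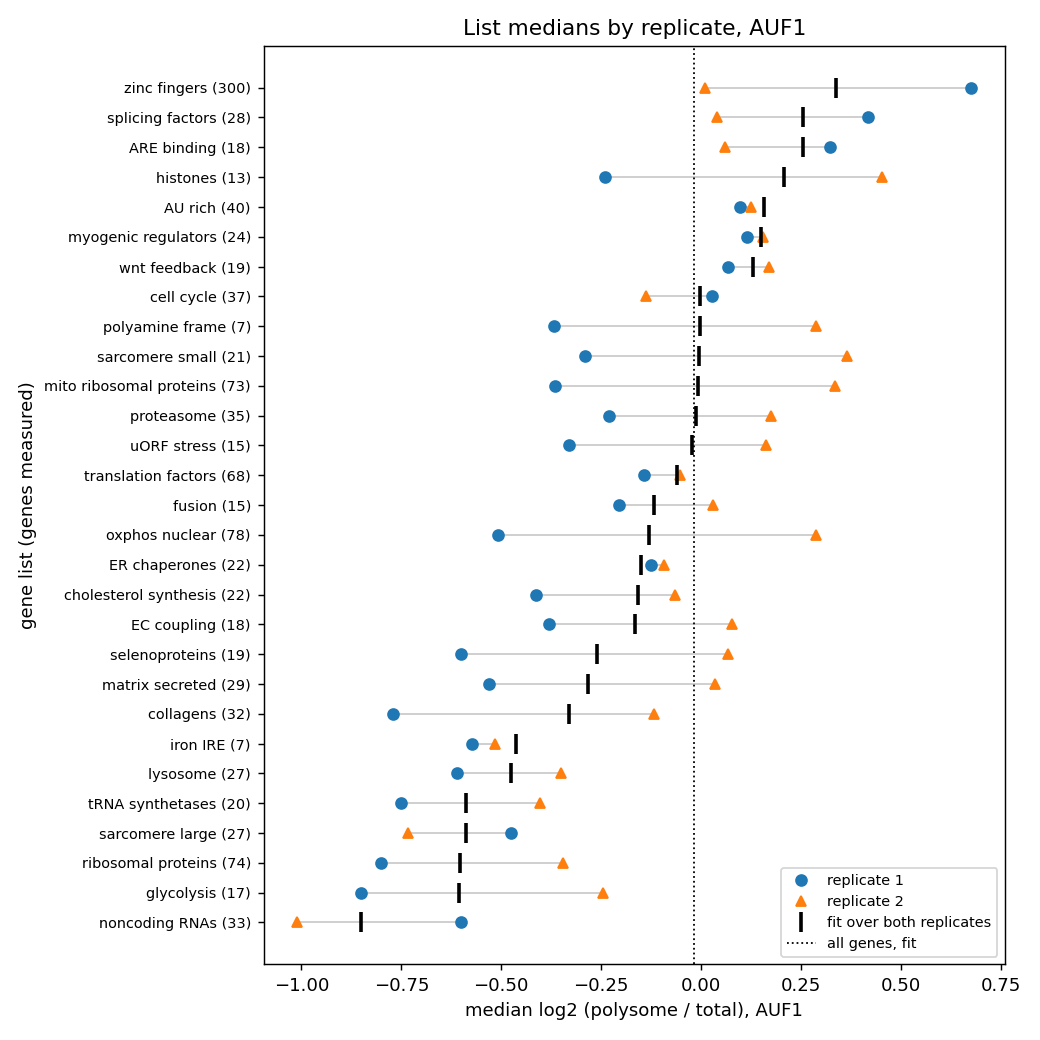
Median log2 polysome over total CPM of each gene list in replicate 1 (blue circles), replicate 2 (orange triangles) and the fit over both (black bars), AUF1 libraries, with the number of genes measured in brackets and the median of all genes dotted. Noncoding RNAs, ribosomal proteins, tRNA synthetases, large sarcomere genes, glycolysis and lysosome lie below 0 in both replicates, while zinc fingers reach 0.68 in replicate 1 and 0.01 in replicate 2.

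Among the settings that kept all 8 libraries, DESeq2 alone called genes higher on polysomes. The 7 genes were Ppp1r2 (a phosphatase inhibitor), Mtx2 (of mitochondrial import), B4galt6 (a glycolipid enzyme), Nfyb (a transcription factor subunit), Ccdc104, Pmaip1 (a promoter of apoptosis) and Prkg2 (a protein kinase). Pmaip1 was at 91.4 and 93.5 CPM on polysomes and 25.3 and 64.3 CPM in total RNA. Ppp1r2 was at 99.3 and 129 CPM on polysomes and 51.3 and 83.6 CPM in total RNA, a log2 ratio of 0.79 ± 0.22 (edgeR adjusted p = 0.326). In each of these 7 genes both replicates were above 0. These 7 were chosen after their values were seen.

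The 300 zinc finger genes named Zfp had a median of 0.34, and 77 of them (against 8.86% of all genes) had both polysome libraries above both total libraries. Of the 300, 0 passed the edgeR test and DESeq2 called 0 of those to which it gave an adjusted p. At an unadjusted edgeR p under 0.05, 32 were higher and 1 lower (5.07% and 7.12% of all genes). Replicate 1 gave a median of 0.68 and replicate 2 0.01. Zfp157 was at 32.3 and 22.9 CPM on polysomes and 10.6 and 17.96 CPM in total RNA, and Zfp946 at 7.37 and 11.8 against 1.82 and 6.997 CPM. The 28 hnRNP and SR splicing factors had a median of 0.26 (0.42 and 0.04 in the replicates). Of the 28, 0 passed the edgeR test and DESeq2 called 0. At an unadjusted edgeR p under 0.05, 4 were higher and 0 lower (5.07% and 7.12% of all genes). Srsf5 and Srsf1 had 0.81 ± 0.27 and 0.73 ± 0.26, Hnrnph3 0.68 ± 0.27 and Srsf10 0.89 ± 0.37. These genes were higher mainly in replicate 1, at 1.08 to 1.73, against 0.13 to 0.40 in replicate 2.

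The replicates of the AUF1 comparison agreed little beyond the most depleted RNAs. Across 13167 genes, which share libraries and are not independent, the log2 ratios of replicate 1 and replicate 2 had a Pearson r of 0.095, and 51.2% had the same direction. At least 2-fold differences were seen in 18.3% of genes in replicate 1 and 4.0% in replicate 2. In both replicates, 103 genes (0.782%) were at least 2-fold lower and 17 (0.129%) at least 2-fold higher. Against WT, the same replicate number gave r of 0.59 in replicate 1 and 0.62 in replicate 2.

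GC content and coding length of the transcript moved with the ratio, in different replicates. Across 13056 genes with a transcript in GENCODE, the Spearman rho of GC content with the ratio was -0.68 in replicate 1 and 0.09 in replicate 2. Genes under 40% GC had a median of 1.37 in replicate 1 and 0.02 in replicate 2, and those of 55 to 60% had -0.49 and 0.07. For coding length, rho over 12605 genes was 0.05 in replicate 1 and -0.45 in replicate 2. Genes of 1600 or more codons had medians of 0.14 and -0.44, and those of 100 to under 200 codons -0.19 and 0.33. The part of GC content and length in the list medians was not tested beyond 1 alternative, a GC offset chosen after seeing the data. With it, the medians became -0.49 for ribosomal proteins, -1.05 for noncoding RNAs, -0.44 for glycolysis and 0.18 for zinc fingers. H19 and Sepw1 were called with it too, as were Fth1, Rpl41, Mybbp1a (a nucleolar protein), Ddb1 (a DNA damage binding protein), Snhg6 and 2410006H16Rik, all lower and 8 in all (0.0613%), with 0 higher. Without the offset, Mybbp1a was at 94.9 and 90.5 CPM on polysomes and 379 and 260 CPM in total RNA, with a log2 ratio of -1.76 ± 0.22 (edgeR adjusted p = 0.0568). Ddb1 was at 538 and 518 CPM on polysomes and 1901 and 1366 CPM in total RNA, with -1.61 ± 0.23 (edgeR adjusted p = 0.0863).

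**Figure D5:**
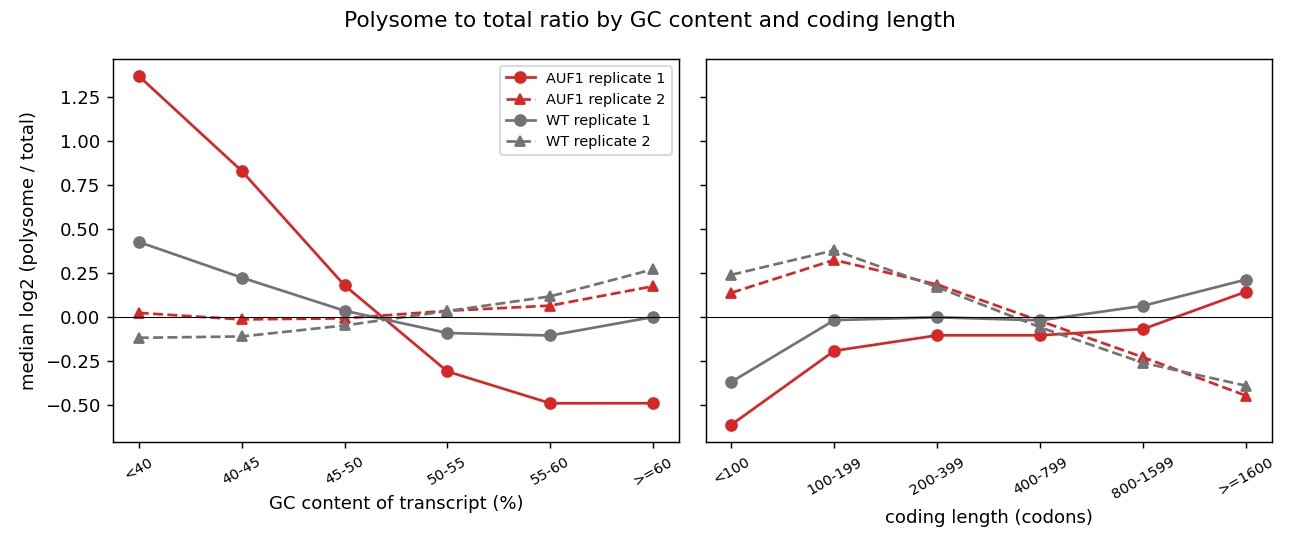
Median log2 polysome over total CPM by GC content (left) and coding length (right) of the annotated transcript, for AUF1 (red) and WT (grey), replicate 1 as solid lines with circles and replicate 2 as dashed lines with triangles. The AUF1 replicate 1 line falls from 1.37 to -0.49 with GC content, and both replicate 2 lines rise up to the bin of 100 to under 200 codons and fall from there on.

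The genes that DESeq2 called lower with AUF1 had a higher median coding length than all genes and were lower in WT too. The 180 had a median of 915 codons and 54.2% GC, against 464 codons and 50.5% over all genes. These all-gene medians, and the WT share that follows, include 4595 genes without a DESeq2 adjusted p, which could not be called. All 180 had a WT log2 ratio below 0, as did 46.9% of all genes tested, and DESeq2 called 93 of them lower in WT, where it called 1.26% of the genes with an adjusted p lower. By edgeR, H19 and Sepw1 were the 2 genes called in WT (0.0152%). The difference between AUF1 and WT in the polysome to total ratio was called for 0 genes by edgeR and 0 by DESeq2, with 49 (0.372%) at an unadjusted edgeR p under 0.05. The median SE of that difference was 0.40. The block allows no polysome to total difference that varies with the replicate number. Such variation was partly shared by the genotypes (r of 0.59 and 0.62 within a number, 0.095 between the AUF1 replicates). The fit counts it as error, so 0 calls cannot show that the genotypes were alike.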

How the data were processed

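Counts per gene symbol in 8 libraries were deposited by the authors as raw counts. Per the submitters' processing notes, the build was mm10 and the tools were STAR, Bowtie, SAMtools, cutadapt and Trimmomatic. Versions, counting program and strand setting were not given in the sources used here. The 5 summary lines were left out (6.04% to 7.23% outside genes, 0.254% to 0.389% ambiguous), and 27 date-named genes were kept but not named. Genes were filtered by filterByExpr and scaled by TMM in edgeR 4.0.16 (R 4.3.3). A quasi-likelihood model of all 8 libraries with the replicate number as a block (3 residual degrees of freedom) was tested two-sided with Benjamini-Hochberg adjustment. SE is the log2 ratio over the square root of F. DESeq2 1.42.0 was an alternative. Replicate numbers 1 and 2 are those of the titles, while the descriptions number the second library of a group 3. The block was set by the rule that defined the comparison. Deviations of same-numbered libraries correlated at 0.67 to 0.90 across the groups (11159 genes), though the labels do not say what a number shares. Within-replicate ratios use a prior count of 2. Coding length came from GENCODE M21, as no protein table was used. Named genes were Hnrnpd, up to 12 called rises and falls (mean log2 CPM of at least 3, no overlap, gene models passed over), up to 4 members per list by p, and 20 fixed genes. The members, lists and tests were chosen with earlier results of these data known. The fit was also run on counts simulated from its own model. That model lacks the GC and length trends of the ratio seen here, so the run does not bear on them.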

Additional observations from a re-analysis of the deposited data

How the results depend on the processing

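The main count of 2 genes called with AUF1 was 0 with no replicate block, 1 with library totals only, 8 with the GC offset (chosen after seeing the data), 11 with no filter on low counts, 16 in the AUF1 libraries alone with the block (1 residual degree of freedom) and 187 with DESeq2. Leaving out 1 library gave 0 to 1133. RLE scaling and a stricter filter gave 2. The WT count of 2 was 0 with no replicate block and with library totals only, 6 with the GC offset, 23 with no filter and 146 with DESeq2, and 0 to 70 with 1 library left out. The difference between genotypes stayed at 0 genes in each setting except without WT polysome replicate 2, which gave 11 (range 0 to 11). Without the pairing of the block, H19 had -2.65 (edgeR adjusted p = 0.172) and Sepw1 -2.24 (edgeR adjusted p = 0.528), and the median SE rose from 0.28 to 0.43. With 1 library left out, a lone library is assumed to vary like the others. With library totals only, the median log2 ratio of all genes was 0.11, against -0.02. The causes were not tested.

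The share of ribosomal protein genes with the tract exactly at the start was 25.5%, against 50.9% within 5 bases. Log2 ratios changed sign for genes that were not called. With 1 library left out they ranged from -0.81 to 0.21 for Slc40a1, -0.48 to 0.24 for Tfrc, -0.0114 to 0.88 for Rpl5, -0.90 to 0.44 for Malat1, -1.69 to 0.0378 for Gapdh, -0.59 to 0.30 for Acta1, -0.35 to 1.34 for Neb, -0.48 to 0.47 for Myod1, -0.47 to 0.39 for Tmem8c, -0.40 to 0.47 for Gm7325, -0.17 to 0.49 for Cdkn1a, -0.30 to 0.37 for Ccnd1, -0.40 to 0.15 for Odc1 and -0.12 to 0.60 for Hnrnpd. Neb was -0.14 with no replicate block, and Hnrnpd -0.33 with the GC offset.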

Other observations

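Genes higher on polysomes in both AUF1 replicates by at least 2-fold were mostly of low level. The exception above 30 CPM in every library was Lars2, a mitochondrial leucyl-tRNA synthetase, at 109 and 80.3 CPM on polysomes and 52.0 and 38.5 CPM in total RNA, a log2 ratio of 1.06 (edgeR adjusted p = 0.357). Lars2 was chosen after its values were seen. Nuclear-coded respiratory chain genes (78 measured) and mitochondrial ribosomal protein genes (73 measured) had medians of opposite sign in the replicates, at -0.51 and 0.29 for the first and -0.36 and 0.34 for the second, and 0 of either list passed the edgeR test. At an unadjusted edgeR p under 0.05, 5 of the first were lower and 0 higher and 1 of the second was lower and 1 higher. Over all genes, 7.12% were lower and 5.07% higher at that p. DESeq2 called 1 of the first lower and 0 of the second.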
